A study of Homo sapiens with 6 samples.

Results

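YAP and TAZ target genes are genes whose transcription is raised by YAP1 and WWTR1 (TAZ), the coactivators held back by the Hippo pathway. The 10 genes described here were CCN1, CCN2, ANKRD1, F3, CRIM1, MYOF, TGFB2, IGFBP3, NUAK2 and PTPN14. They were taken by gene symbol, and all 10 were found among the 16000 genes listed for all 6 libraries. All 10 also passed the filter on low counts that left 13492 genes for testing. Total RNA depleted of ribosomal RNA was sequenced from 6 human lung adenocarcinoma cell lines, 1 library a line, so no line had a replicate. The 4 derived lines, PC-9GR, PC-9ER, HCC827GR and HCC827ER, had acquired resistance to EGFR tyrosine kinase inhibitors, drugs that block the kinase of the epidermal growth factor receptor. Their parents were PC-9 and HCC827, lines with activating EGFR mutations. GR and ER are not spelled out in the labels, which also write HCC827GR as HCC82GR and do not say whether drug was present at harvest. Every line was cultured in serum-containing RPMI. The series asks which signalling pathways accompany acquired resistance, and its title names the Hippo pathway.

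In the Hippo pathway the kinases MST1 and MST2 activate LATS1 and LATS2, which phosphorylate YAP1 and WWTR1 and keep them out of the nucleus. Unphosphorylated YAP1 and WWTR1 enter the nucleus and bind the TEAD transcription factors, TEAD1 to TEAD4, which hold the DNA contact. Many of their sites lie in distant enhancers and are shared with AP-1, while the best known promoter sites are those of CCN2 and ANKRD1. In epithelial cells this output is low at high cell density and high in spread cells, and in EGFR-mutant lung cancer cells it has been linked to survival under EGFR inhibitors.

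Levels are in CPM, the counts per 1000000 counts of a library. Libraries held 14529332 (HCC827) to 17859787 (PC-9GR) counts and detected 14756 to 15096 genes. A count of 0 allowed up to 3 counts, or 0.168 to 0.206 CPM. Intervals on ratios are exact 95% conditional binomial intervals and, like these limits, cover counting error only, since reads carried no molecular identifiers. PC-9GR stood apart from its parent, with 41.8% of 13017 genes at least 2-fold away from PC-9. That share was 13.1% in PC-9ER and 17% in HCC827GR. Between the 2 parents, 19.3% of 12910 genes were at least 2-fold higher in HCC827 than in PC-9 and 19% lower. HCC827ER had 39.6% of 12599 genes at least 2-fold away from HCC827, and ribosomal protein genes took 16.3% of its counts, against 5.93 to 8.59% elsewhere. The median gene of HCC827ER lay at a log2 ratio of -0.35 to HCC827. With TMM, a scaling that centres most genes on no change, it lay at -0.0031. The log2 ratios of HCC827ER to its parent are therefore given on both scales, save in the heat map, which has the CPM scale. Both ER lines, and no other library, came in the second of 2 deposited tables, so the table and the ER lines cannot be told apart. Epithelial markers were present in every line, at a summed 5640 to 16959 CPM over EPCAM, KRT7, KRT8, KRT18, KRT19 and CDH1.

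Promoters are shown for the genes with the most matches to the motifs of TEAD and of AP-1. YAP1 and WWTR1 reach DNA through TEAD, and AP-1 shares many of their sites. RefSeq (GRCh38.p14) promoters were at hand for 8 of the 10 genes, all but CCN1 and CRIM1. In the 250 bases before each gene's start, both strands were searched for the TEAD motif GGAATG, written CATTCC on the other strand, for the AP-1 motif TGANTCA, and for the CArG box of SRF. A TEAD motif was found in 5 of the 8 promoters. Of all 35116 promoters of the same length in the RefSeq table, 11.9% held one. CCN2 had 3 TEAD motifs, a number that 0.0826% of all promoters reached. ANKRD1 and NUAK2 had 2 each, which 0.94% of all promoters reached or passed, and TGFB2 and PTPN14 had 1 each. F3 had 2 AP-1 motifs and no TEAD motif, and ANKRD1 had 1 AP-1 motif beside its 2 TEAD motifs. At least 1 AP-1 motif stood in 6.57% of all promoters, and at least 2 in 0.402%. No motif overlapped another, no CArG box was found in the 8 promoters, against 1.16% of all promoters, and MYOF and IGFBP3 had none of the 3 motifs. These matches are letters in a short window and do not show that a factor binds there. The promoters of CCN2 (chr6:131951373-131951622), ANKRD1 (chr10:90921088-90921337), NUAK2 (chr1:205321746-205321995) and F3 (chr1:94541760-94542009) are printed 5′ to 3′ on the minus strand of GRCh38.p14, the strand of each gene, with TEAD and AP-1 motifs in capitals.
CCN2: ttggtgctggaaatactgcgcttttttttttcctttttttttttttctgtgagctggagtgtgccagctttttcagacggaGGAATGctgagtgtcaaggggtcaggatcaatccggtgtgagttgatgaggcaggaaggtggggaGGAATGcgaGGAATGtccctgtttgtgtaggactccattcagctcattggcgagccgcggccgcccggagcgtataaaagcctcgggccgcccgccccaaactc
ANKRD1: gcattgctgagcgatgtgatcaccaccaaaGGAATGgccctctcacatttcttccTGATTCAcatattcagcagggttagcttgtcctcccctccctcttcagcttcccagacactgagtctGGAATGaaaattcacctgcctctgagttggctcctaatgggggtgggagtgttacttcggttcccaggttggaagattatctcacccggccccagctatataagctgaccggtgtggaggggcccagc
NUAK2: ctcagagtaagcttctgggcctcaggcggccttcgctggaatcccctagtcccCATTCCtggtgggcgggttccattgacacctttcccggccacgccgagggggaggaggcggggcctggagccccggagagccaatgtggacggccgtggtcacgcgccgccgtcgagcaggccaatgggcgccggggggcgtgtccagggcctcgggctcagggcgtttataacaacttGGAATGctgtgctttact
F3: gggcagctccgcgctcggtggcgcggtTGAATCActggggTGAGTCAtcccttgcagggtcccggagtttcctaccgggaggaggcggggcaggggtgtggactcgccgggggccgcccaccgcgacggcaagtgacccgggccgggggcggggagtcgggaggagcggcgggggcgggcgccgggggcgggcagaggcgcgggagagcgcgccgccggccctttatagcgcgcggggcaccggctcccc
The CCN2 motifs began 169, 104 and 95 bases before the start. Those of ANKRD1 began 220 and 128 bases before it for TEAD and 195 bases before it for AP-1. The F3 AP-1 motifs began 223 and 210 bases before the start, and the NUAK2 TEAD motifs 197 and 18 bases before it.

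**Figure D1:**
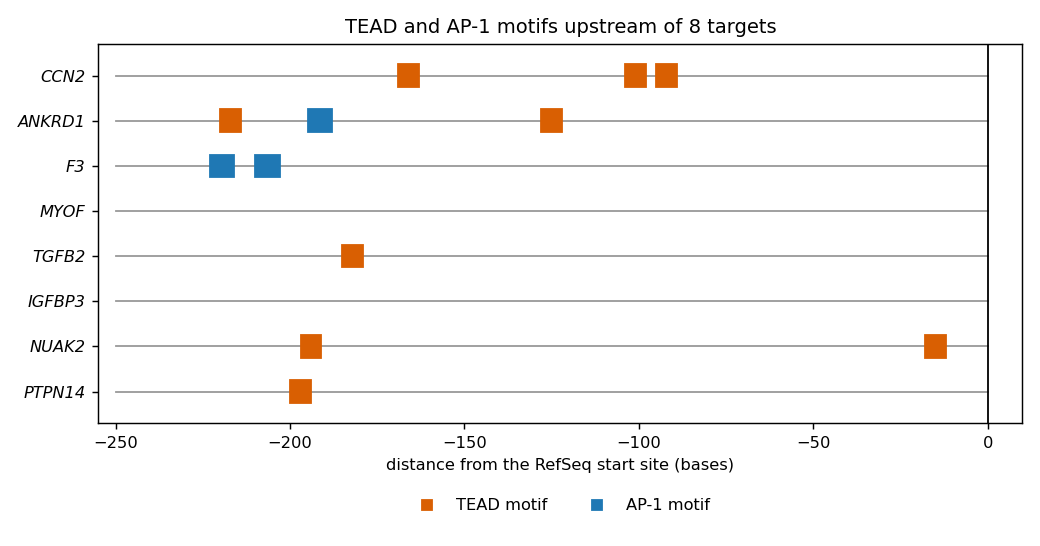
Positions of TEAD and AP-1 motifs in the 250 bases before the RefSeq start of 8 of the target genes, with distance from the start in bases on the x axis and 1 gene per row. CCN2 holds 3 TEAD motifs, ANKRD1 holds 2 TEAD motifs and 1 AP-1 motif, F3 holds 2 AP-1 motifs, and MYOF and IGFBP3 hold none.

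The 10 target genes did not move as a block in the resistant lines. None of the 10 had the same sign of change in all 4 pairs of a derived line and its parent, whereas 22.1% of 13778 genes did. None reached 2-fold higher in each of the 4 pairs, as 0.305% of genes did, or 2-fold lower in each, as 0.791% did. The 2 pairs of a parent share its library. With a pair left out in turn, a choice made after seeing the data, the number with 1 sign in the remaining pairs was 2 without PC-9GR (MYOF and CCN2, whose sign in PC-9ER rests on 2 against 3 counts), 2 without PC-9ER (F3 and NUAK2), 1 without HCC827GR (PTPN14) and 1 without HCC827ER (TGFB2, at a log2 ratio of 0.011 in HCC827GR). Over all genes that share was 32, 33.2, 38 and 32% in the same order.

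**Figure D2:**
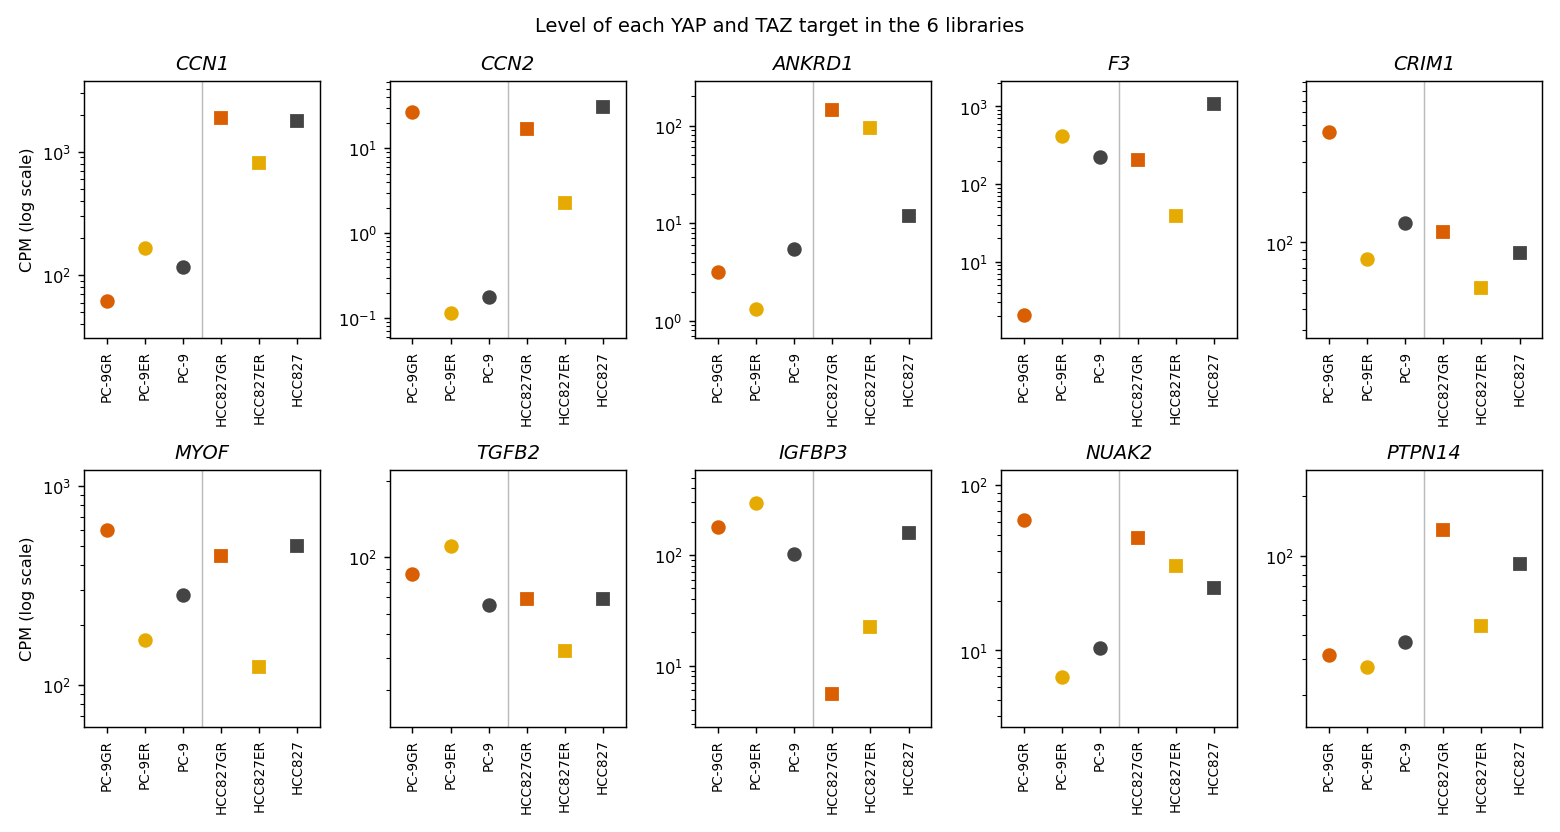
Level of each of the 10 target genes in CPM on a log axis, 1 point per library, with the derived lines PC-9GR and PC-9ER left of PC-9 and HCC827GR and HCC827ER left of HCC827. CCN2 lies at 26.8 CPM in PC-9GR but at 0.116 CPM in PC-9ER and 0.1775 CPM in PC-9, and F3 lies at 2.07 CPM in PC-9GR against 223 CPM in PC-9.

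CCN1 and CCN2 encode secreted matricellular proteins that bind integrins and are the targets most often used to read YAP1 and WWTR1 activity. CCN1 (CYR61; chromosome 1, 85580761 to 85583962, plus strand, GENCODE 29 on GRCh38) was at 61.7 CPM in PC-9GR and 165 CPM in PC-9ER, against 116 CPM in PC-9. In the other family CCN1 was at 1870 CPM in HCC827GR and 808 CPM in HCC827ER, against 1790 CPM in HCC827. Between the parents CCN1 differed 15.5-fold (14.8 to 16.2), higher in HCC827. Within a family the ratios were small: CCN1 was 1.87-fold lower in PC-9GR (1.74 to 2.02), 1.43-fold higher in PC-9ER (1.35 to 1.51) and 1.04-fold higher in HCC827GR (1.03 to 1.06). In HCC827ER it was 2.21-fold lower (2.17 to 2.26), a log2 ratio of -1.15 that was -0.79 with TMM.

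CCN2 (CTGF; chromosome 6, 131948176 to 131951373, minus strand) ranked the 6 lines in another order than CCN1, and its promoter carried the most TEAD motifs of the 8. It was at 26.8 CPM in PC-9GR and 0.116 CPM in PC-9ER, against 0.1775 CPM in PC-9, on 479, 2 and 3 counts. CCN2 was at 16.8 CPM in HCC827GR and 2.25 CPM in HCC827ER, against 31.1 CPM in HCC827. PC-9 and PC-9ER thus had no more than the 3 counts that a count of 0 allows, while PC-9GR stood within the range of the HCC827 family. CCN2 was 151-fold higher in PC-9GR than in PC-9, with an interval of 51.4 to 735 that rests on the 3 counts of PC-9. No direction can be read in PC-9ER, whose ratio of 0.653 had an interval of 0.0546 to 5.70. In HCC827GR it was 1.86-fold lower (1.59 to 2.17) and in HCC827ER 13.8-fold lower (9.93 to 19.7), with log2 -3.38 in TMM scaling for HCC827ER. CCN1 and CCN2 pointed opposite ways in PC-9GR, where CCN1 was lower and CCN2 higher.

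ANKRD1, a nuclear ankyrin repeat protein of stretched muscle that is induced by YAP1, was the only one of the 10 that was higher in both HCC827 derivatives by more than 2-fold. ANKRD1 (chromosome 10, 90912096 to 90921276, minus strand) was at 3.19 CPM in PC-9GR and 1.33 CPM in PC-9ER, against 5.50 CPM in PC-9. It was at 143 CPM in HCC827GR and 95.3 CPM in HCC827ER, against 11.98 CPM in HCC827. Both derived lines lay below their parent in the PC-9 family and above it in the HCC827 family. The ratios were 11.9 in HCC827GR (10.2 to 13.98) and 7.96 in HCC827ER (6.80 to 9.36; log2 2.98, or 3.33 with TMM). The gene was 1.72-fold lower in PC-9GR (1.23 to 2.44) and 4.13-fold lower in PC-9ER (2.59 to 6.83).

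F3 encodes tissue factor, the cell-surface starter of blood coagulation, and spanned the widest range of the 10, 513-fold between its highest and lowest library. F3 (chromosome 1, 94529225 to 94541800, minus strand) was at 2.07 CPM in PC-9GR and 416.5 CPM in PC-9ER, against 223 CPM in PC-9. It was at 207 CPM in HCC827GR and 38.8 CPM in HCC827ER, against 1063 CPM in HCC827. F3 was therefore lower than in the parent in 3 derived lines and higher in PC-9ER. It was 107.7-fold lower in PC-9GR (77.97 to 153), 5.13-fold lower in HCC827GR (4.94 to 5.34) and 27.4-fold lower in HCC827ER (25.3 to 29.6; log2 -4.77, or -4.42 with TMM). In PC-9ER it was 1.87-fold higher (1.80 to 1.94). In PC-9GR F3 and CCN2 thus held the lowest and the highest ratio of the 10.

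CRIM1 and MYOF are membrane proteins: CRIM1 binds bone morphogenetic proteins, and MYOF (myoferlin) takes part in membrane repair and fusion. CRIM1 (chromosome 2, 36355926 to 36551135, plus strand) was at 458 CPM in PC-9GR and 79.6 CPM in PC-9ER, against 130.2 CPM in PC-9. It was at 115 CPM in HCC827GR and 53.8 CPM in HCC827ER, against 86.0 CPM in HCC827. In each family CRIM1 was thus higher than the parent in the GR line and lower in the ER line. It was 3.52-fold higher in PC-9GR (3.35 to 3.69) and 1.34-fold higher in HCC827GR (1.25 to 1.44), and 1.64-fold lower in PC-9ER (1.53 to 1.75). The log2 ratio in HCC827ER was -0.68, or -0.32 with TMM. MYOF (chromosome 10, 93306429 to 93482317, minus strand) was at 605 CPM in PC-9GR and 169 CPM in PC-9ER, against 283 CPM in PC-9. It was at 446 CPM in HCC827GR and 123 CPM in HCC827ER, against 501 CPM in HCC827. The ER line was the lowest of each family for MYOF. Its ratio was 2.14 in PC-9GR (2.07 to 2.21), and it was 1.67-fold lower in PC-9ER (1.597 to 1.75), 1.12-fold lower in HCC827GR (1.09 to 1.16) and 4.08-fold lower in HCC827ER (3.89 to 4.29; log2 -2.03, or -1.68 with TMM).

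TGFB2 and IGFBP3 encode secreted factors, the cytokine TGF-beta 2 and a carrier that binds insulin-like growth factors. TGFB2 (chromosome 1, 218346235 to 218444619, plus strand) was at 86.3 CPM in PC-9GR and 111 CPM in PC-9ER, against 65.0 CPM in PC-9. It was at 68.8 CPM in HCC827GR and 42.85 CPM in HCC827ER, against 68.3 CPM in HCC827. TGFB2 varied least of the 10, 2.59-fold over the 6 libraries, and no pair reached 2-fold. It was 1.33-fold higher in PC-9GR (1.23 to 1.44) and 1.71-fold higher in PC-9ER (1.58 to 1.84), and its log2 ratio in HCC827ER was -0.67, or -0.32 with TMM. HCC827GR differed from HCC827 by less than counting error, with a ratio of 1.01 (0.922 to 1.10), and so did the parents, with a ratio of 1.05 for HCC827 over PC-9 (0.963 to 1.15). IGFBP3 (chromosome 7, 45912245 to 45921874, minus strand) was at 179 CPM in PC-9GR and 294 CPM in PC-9ER, against 103 CPM in PC-9. It was at 5.61 CPM in HCC827GR and 22.2 CPM in HCC827ER, against 157 CPM in HCC827. Both PC-9 derivatives lay above PC-9 and both HCC827 derivatives far below HCC827, the reverse of ANKRD1. IGFBP3 was 1.74-fold higher in PC-9GR (1.64 to 1.84) and 2.86-fold higher in PC-9ER (2.71 to 3.02). It was 28.0-fold lower in HCC827GR (22.5 to 35.2) and 7.06-fold lower in HCC827ER (6.34 to 7.89; log2 -2.81, or -2.46 with TMM).

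NUAK2 is a kinase that feeds back to raise YAP1 and WWTR1 activity, and PTPN14 is a phosphatase that binds YAP1 and restrains it. NUAK2 (chromosome 1, 205302059 to 205321791, minus strand) was at 61.9 CPM in PC-9GR and 6.90 CPM in PC-9ER, against 10.3 CPM in PC-9. It was at 47.8 CPM in HCC827GR and 32.5 CPM in HCC827ER, against 23.7 CPM in HCC827. NUAK2 was higher than the parent in 3 of 4 pairs and lower in PC-9ER. The ratio was 6.01 in PC-9GR (5.12 to 7.10), 2.02 in HCC827GR (1.77 to 2.30) and 1.37 in HCC827ER (1.20 to 1.57), and NUAK2 was 1.49-fold lower in PC-9ER (1.18 to 1.90). With TMM the log2 ratio was 0.96 in HCC827GR, under 2-fold, and 0.80 in HCC827ER. PTPN14 (chromosome 1, 214348696 to 214552449, minus strand) was at 31.5 CPM in PC-9GR and 27.5 CPM in PC-9ER, against 36.9 CPM in PC-9. It was at 135 CPM in HCC827GR and 44.1 CPM in HCC827ER, against 90.85 CPM in HCC827. This feedback inhibitor was lower than the parent in 3 pairs and higher in HCC827GR. It was 1.17-fold lower in PC-9GR (1.04 to 1.32) and 1.34-fold lower in PC-9ER (1.19 to 1.52), and 1.49-fold higher in HCC827GR (1.39 to 1.59). In HCC827ER it was 2.06-fold lower (1.88 to 2.26), a log2 ratio of -1.04 that was -0.69 with TMM.

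The parents themselves differed. In HCC827 6 of the 10 target genes were at least 2-fold higher than in PC-9 (CCN1, CCN2, ANKRD1, F3, NUAK2 and PTPN14) and none was lower, beside 19.3% of all genes higher and 19% lower. The median log2 ratio of the 10 for HCC827 over PC-9 was 1.15, against 0.033 over all genes. CCN2 was 175-fold higher (59.6 to 853, on the 3 counts of PC-9), and F3 was 4.76-fold higher (4.597 to 4.94).

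Per kilobase of exon (GENCODE 29, all exons of a gene merged), the order of the 10 genes differed between lines. In the HCC827 family CCN1 led, at 762 CPM per kb in HCC827GR and 329 in HCC827ER, against 729 in HCC827. In the PC-9 family the leader was MYOF in PC-9GR, at 71.4 CPM per kb, and F3 in PC-9ER, at 144.9 CPM per kb, against F3 in PC-9, at 77.6 CPM per kb. CCN2 was the least abundant of the 10 per kilobase in PC-9ER, PC-9 and HCC827ER, at 0.0496, 0.0759 and 0.964 CPM per kb. The least abundant was F3 in PC-9GR, at 0.721 CPM per kb, and IGFBP3 in HCC827GR, at 1.23 CPM per kb, against PTPN14 in HCC827, at 4.84 CPM per kb.

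**Figure D3:**
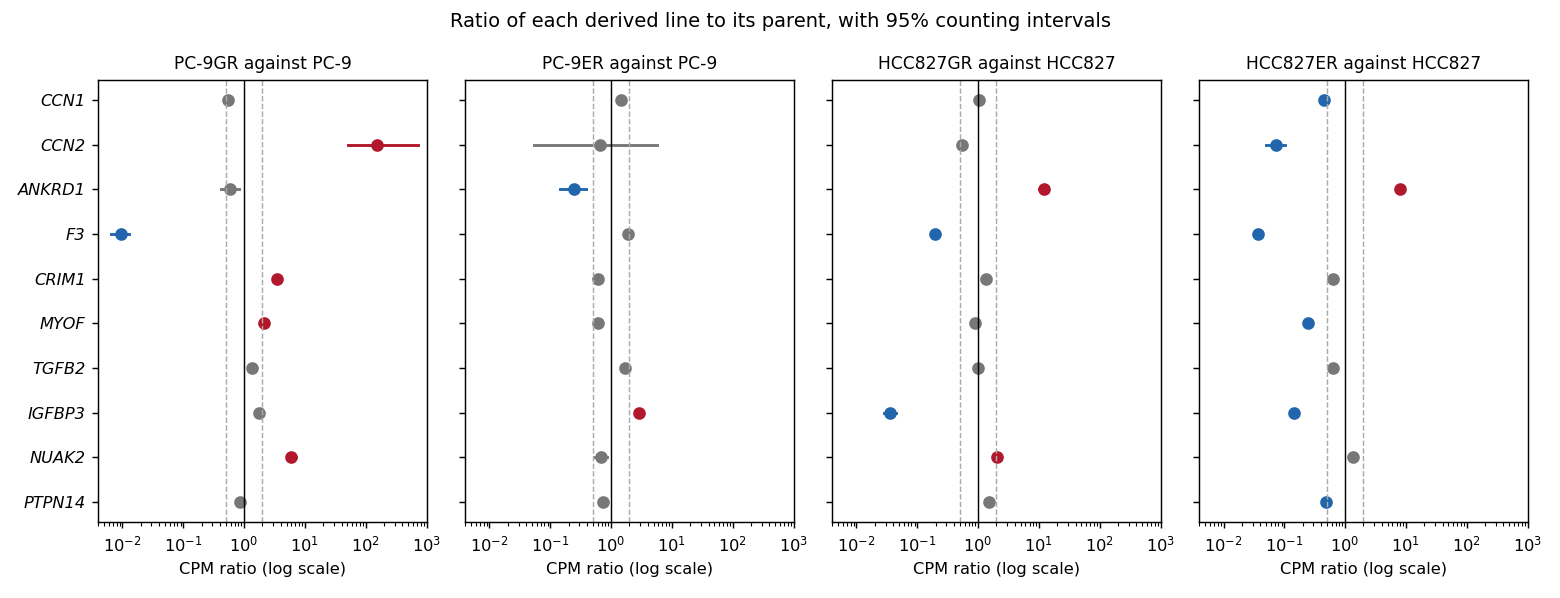
CPM ratio of each derived line to its parent on a log axis for the 10 target genes, 1 panel per pair, with exact 95% counting intervals as bars and dashed lines at 2-fold; red points are at least 2-fold higher, blue points at least 2-fold lower and grey points neither. ANKRD1 lies below a ratio of 1 in both PC-9 pairs and above it in both HCC827 pairs, IGFBP3 does the opposite, and F3 is farthest below it in PC-9GR.

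Counted by pair, PC-9GR had the most target genes at least 2-fold higher and HCC827ER the most at least 2-fold lower. In PC-9GR 4 of the 10 were higher (CCN2, CRIM1, MYOF and NUAK2) and 1 was lower (F3), beside 20.9% of all genes in each direction. The median log2 ratio of the 10 in PC-9GR was 0.60, against -0.018 over all genes. In PC-9ER 1 was higher (IGFBP3) and 1 lower (ANKRD1), beside 5.49% of all genes higher and 7.6% lower, with medians of -0.38 and 0.027. In HCC827GR 2 were higher (ANKRD1 and NUAK2) and 2 lower (F3 and IGFBP3), beside 8.18% and 8.79% of all genes. Only ANKRD1 was counted higher in HCC827GR with TMM, beside 7.73% of all genes higher and 9.26% lower. The medians in HCC827GR were 0.037 for the 10 and 0.059 for all genes. In HCC827ER 1 was higher (ANKRD1) and 6 were lower (CCN1, CCN2, F3, MYOF, IGFBP3 and PTPN14), beside 11.3% of all genes higher and 28.3% lower. With TMM 1 was higher and 4 were lower, beside 17.7% and 19.1% of all genes, and the median of the 10 was -0.74 in place of -1.09.

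The first test set the 4 resistant lines against their 2 parents, blocked on the family of lines. None of the 10 passed it. Of 13492 genes none passed at a Benjamini-Hochberg adjusted p under 0.05 by edgeR's quasi-likelihood test, which is 0% of genes, and 342 (2.53%) had an unadjusted p under 0.05, none of them among the 10. DESeq2 called 29 genes and limma-voom none, with 746 and 491 genes at an unadjusted p under 0.05, and neither called any of the 10. The median log2 fold change of the 10 was 0.038, with 5 higher and 5 lower, against 0.044 over all genes, with 7174 higher and 6318 lower. The largest estimates were -1.87 ± 1.81 for F3, -1.61 ± 1.32 for IGFBP3 and 1.32 ± 0.89 for NUAK2 (log2 ± SE, 4 derived lines against 2 parents; edgeR adjusted p = 0.999 each). With 1 library left out, F3 ran from -4.71 (without PC-9ER) to -0.095 (without HCC827), IGFBP3 from -3.21 to 1.22 and NUAK2 from 0.24 (without PC-9GR) to 1.78. The spread takes in that between derived lines and how far the families disagree. It was widest for CCN2, whose estimate of 0.23 had an SE of 2.82, and narrowest for TGFB2, at 0.21 ± 0.35.

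Within the PC-9 family none of the 10 passed, with 0% of genes called by edgeR and 0.964% at an unadjusted p under 0.05. The estimates were 6.24 ± 3.74 for CCN2, 1.79 ± 1.36 for NUAK2, 1.22 ± 1.08 for IGFBP3 and -1.24 ± 0.73 for ANKRD1 (edgeR adjusted p = 1 each). DESeq2 called 94 genes and limma-voom none, with 198 at an unadjusted p under 0.05, and neither called any of the 10. With PC-9ER left out, CCN2 at 7.22 (adjusted p = 0.00014) and F3 at -6.70 (adjusted p = 2.82e-05) passed edgeR's test, in a fit that assumes the lone PC-9GR library varies like the other lines. That fit called 999 genes. With PC-9GR left out, CCN2 was at -0.58 and F3 at 0.90 (edgeR adjusted p = 1 each).

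Within the HCC827 family edgeR again called 0% of genes, and 1.45% had an unadjusted p under 0.05. ANKRD1 and IGFBP3 were 2 such genes, at 3.44 ± 0.89 and -3.22 ± 0.99 (log2 ± SE; edgeR unadjusted p = 0.00829 and 0.0183, adjusted p = 1 each). DESeq2 called 42 genes, of which ANKRD1 was one (3.45, adjusted p = 0.0183), while limma-voom found none, with 174 genes at an unadjusted p under 0.05. F3 was at -3.10 and IGFBP3 at -3.23 when PC-9GR was left out. With PC-9ER left out they were at -3.09 and -3.21. Both genes passed edgeR's test in each of these 2 fits. With 1 derivative left, the PC-9 family adds no spread, so both fits take their spread from HCC827GR and HCC827ER. The passes in these 2 fits are therefore not separate results. Leaving out the family's own derivatives gave no call, with F3 at -4.42 and IGFBP3 at -2.47 without HCC827GR, and F3 at -2.40 and IGFBP3 at -4.84 without HCC827ER. F3 as reported was at -3.09 ± 2.42.

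ANKRD1 and IGFBP3 were also the only 2 of the 10 whose change ran one way in both derivatives of one parent and the other way in both derivatives of the other, beside 12.7% of all genes. With TMM TGFB2 joined them, at a log2 ratio of -0.037 in HCC827GR. The change in HCC827 derivatives minus that in PC-9 derivatives was 4.68 ± 1.12 for ANKRD1 and -4.43 ± 1.53 for IGFBP3 (log2 ± SE). This difference did not pass edgeR's test in either gene (unadjusted p = 0.00592 and 0.0283, adjusted p = 1 each), nor did any of the 13492 genes, and 0.875% of genes had an unadjusted p under 0.05. DESeq2 called 25 genes for the difference, including ANKRD1 (4.71, adjusted p = 0.0424), and limma-voom called none, with 74 at an unadjusted p under 0.05. CCN2, at -7.94 ± 4.41 in the full fit, passed edgeR's test without PC-9ER (-8.92, adjusted p = 6.91e-05), in a fit that called 506 genes and has PC-9GR as a lone library. Without PC-9GR it was at -1.13 (edgeR adjusted p = 1).

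**Figure D4:**
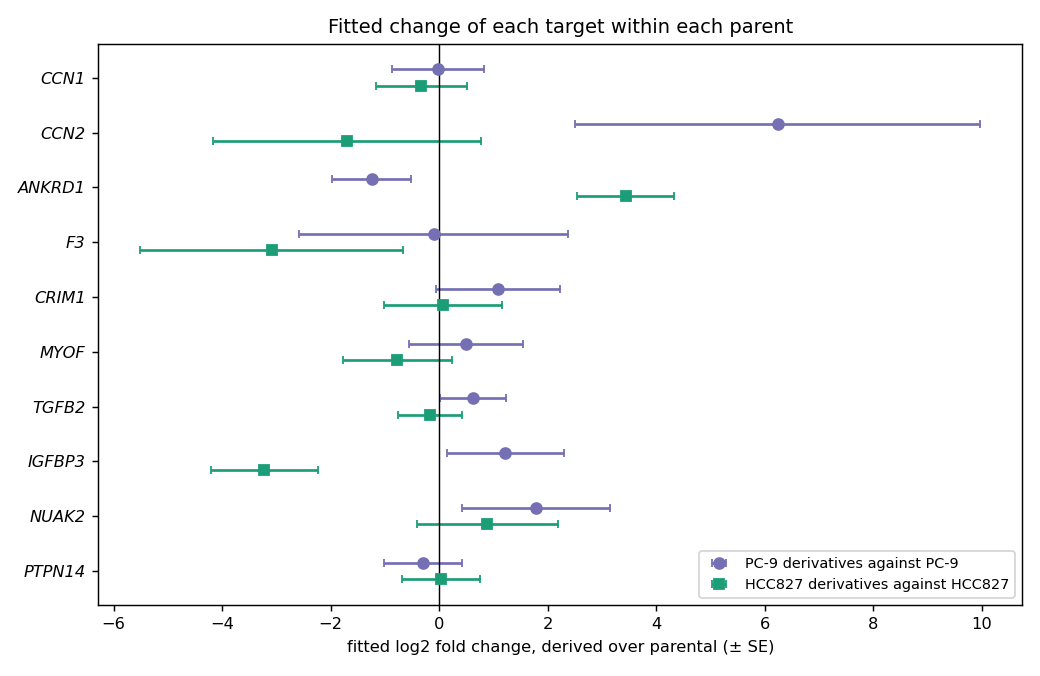
Fitted log2 fold change of the derivatives of each parent for the 10 target genes. Bars are 1 standard error, worked out from the F statistic of edgeR's test. The PC-9 derivatives and the HCC827 derivatives are drawn in different colours. ANKRD1 sits at 3.44 in the HCC827 derivatives and -1.24 in the PC-9 derivatives, IGFBP3 at -3.22 and 1.22.

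The ER and GR lines were then compared across both parents. In PC-9ER 2 of the 10 target genes were at least 2-fold higher than in PC-9GR and 5 lower, beside 19.5% of all genes in each direction. In HCC827ER 1 was higher than in HCC827GR and 6 lower, beside 10.9% of all genes higher and 29% lower, and with TMM 1 was higher and 4 lower, beside 18% and 18.4%. In both families 6 of the 10 target genes were lower in the ER line than in the GR line (CCN2, ANKRD1, CRIM1, MYOF, NUAK2 and PTPN14), beside 30.9% of all genes. At least 2-fold lower in both were CCN2, CRIM1 and MYOF, beside 5.13% of all genes. With TMM CRIM1 no longer reached 2-fold in HCC827ER, at a log2 ratio of -0.70 to HCC827GR. The fit gave -6.38 ± 2.38 for CCN2, -1.71 ± 0.60 for CRIM1 and -1.71 ± 0.51 for MYOF (log2 ± SE, 2 ER against 2 GR lines), and the CCN2 value rests on the 2 counts of PC-9ER. None passed edgeR's test (unadjusted p = 0.043, 0.0346 and 0.0187, adjusted p = 0.693 each), and no gene did, while 6.9% of genes had an unadjusted p under 0.05 and 2.89% had it in the lower direction. With DESeq2, 340 genes passed, and CCN2 (-6.62, adjusted p = 0.00354) and MYOF (-1.70, adjusted p = 0.0443) were 2 of them. No gene passed with limma-voom, which put 1261 at an unadjusted p under 0.05. Without HCC827GR, edgeR called 1287 genes and 4 of the 10: CCN2 at -9.20 (adjusted p = 0.000214), CRIM1 at -2.49 (adjusted p = 0.014), MYOF at -2.12 (adjusted p = 0.0469) and NUAK2 at -2.83 (adjusted p = 0.0187). That fit has HCC827ER as the lone derivative of its family. Without PC-9GR, where edgeR called 54 genes and none of the 10, CCN2 was at -2.08, CRIM1 at -0.79, MYOF at -1.20 and NUAK2 at -0.45 (adjusted p = 0.48, 0.619, 0.534 and 0.832). F3, CCN1 and TGFB2 went the other way in the PC-9 family only. F3 was 201-fold higher in PC-9ER than in PC-9GR (146 to 286). It was 5.33-fold lower in HCC827ER than in HCC827GR (4.90 to 5.81), at log2 -2.41, or -2.01 with TMM. CCN1 and TGFB2 were 2.68-fold and 1.29-fold higher in PC-9ER than in PC-9GR. Their log2 ratios of HCC827ER to HCC827GR were -1.21 and -0.68 (-0.81 and -0.28 with TMM). IGFBP3 was higher in the ER line in both families, 1.65-fold (1.57 to 1.72) in PC-9ER and 3.96-fold (3.12 to 5.08) in HCC827ER.

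The coactivators and their DNA-binding partners were measured in the same libraries. YAP1 was at 69.4 CPM in PC-9GR and 105 CPM in PC-9ER, against 205 CPM in PC-9, and at 108 CPM in HCC827GR and 40.0 CPM in HCC827ER, against 118 CPM in HCC827. WWTR1 was at 226 CPM in PC-9GR and 48.65 CPM in PC-9ER, against 101.6 CPM in PC-9, and at 231 CPM in HCC827GR and 101.6 CPM in HCC827ER, against 227 CPM in HCC827. TEAD1 was at 191 CPM in PC-9GR and 57.1 CPM in PC-9ER, against 129.6 CPM in PC-9, and at 96.9 CPM in HCC827GR and 15.6 CPM in HCC827ER, against 94.6 CPM in HCC827. WWTR1 and TEAD1 were thus above the parent in PC-9GR, near it in HCC827GR and below it in both ER lines, while YAP1 was below the parent in all 4. Both families had lower WWTR1 and TEAD1 in the ER line than in the GR line, as they had for CRIM1 and MYOF, beside 30.9% of all genes. TEAD2 and TEAD3 were higher in the ER line in both families, and YAP1 was higher in PC-9ER but lower in HCC827ER. In the fit of ER against GR lines 5 of the factor genes were higher and 4 lower, with a median log2 fold change of 0.19. A link between these factors and the target genes was not tested. TEAD2 was at 27.4 CPM in PC-9GR and 53.1 CPM in PC-9ER, against 16.04 CPM in PC-9, and at 9.21 CPM in HCC827GR and 31.75 CPM in HCC827ER, against 13.1 CPM in HCC827. For TEAD3 and TEAD4 the log2 ratios ran from -1.85 to 0.44 over the 4 pairs, and in HCC827ER they were -0.39 and -0.30, or -0.036 and 0.054 with TMM. VGLL1, a TEAD cofactor that competes with YAP1 for TEAD, had the largest mean change of the list and was at 0 CPM in PC-9GR and 49.6 CPM in PC-9ER, against 104 CPM in PC-9. VGLL1 was at 0 CPM in both derivatives, against 0.688 CPM in HCC827. Of the 9 factor genes tested, 4 were higher and 5 lower in the resistant lines, with a median log2 fold change of -0.37, and none passed edgeR's test.

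A further 12 genes used elsewhere as YAP and TAZ targets were not among the 10. Of the 11 tested, 6 were higher and 5 lower in the resistant lines, with a median log2 fold change of 0.25, and none passed edgeR's test. In the single pairs PC-9GR had 3 at least 2-fold higher and 0 lower, PC-9ER 3 higher and 1 lower, HCC827GR 4 higher and 2 lower, and HCC827ER 1 higher and 4 lower. Over all genes those shares were 20.9% each way in PC-9GR, 5.49% higher and 7.6% lower in PC-9ER, 8.18% and 8.79% in HCC827GR, and 11.3% and 28.3% in HCC827ER. With TMM HCC827ER had 1 higher and 3 lower, beside 17.7% and 19.1% of all genes. The receptor kinase AXL, named after its values were seen, was above the parent and the ectonucleotidase NT5E below it in each pair, so 2 of the 22 target genes in both lists kept 1 sign, beside 22.1% of all genes. NT5E had the largest mean change, at 69.9 CPM in PC-9GR and 71.85 CPM in PC-9ER, against 113 CPM in PC-9, and at 14.96 CPM in HCC827GR and 7.05 CPM in HCC827ER, against 194 CPM in HCC827. CCDC80, a matrix protein picked after its values were seen, was at 92.2 CPM in PC-9GR and 174.6 CPM in PC-9ER, against 25.9 CPM in PC-9. It was at 4.875 CPM in HCC827GR and 6.71 CPM in HCC827ER, against 14.3 CPM in HCC827. CCDC80 was therefore above the parent in both PC-9 derivatives and below it in both HCC827 derivatives, as IGFBP3 was. FOXF2, also picked after its values were seen and not past the filter on low counts, had 576 counts in PC-9GR and 0 in PC-9ER, against 1 in PC-9. In the HCC827 family FOXF2 had 0 counts in HCC827GR and 1 in HCC827ER, against 0 in HCC827.

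**Figure D5:**
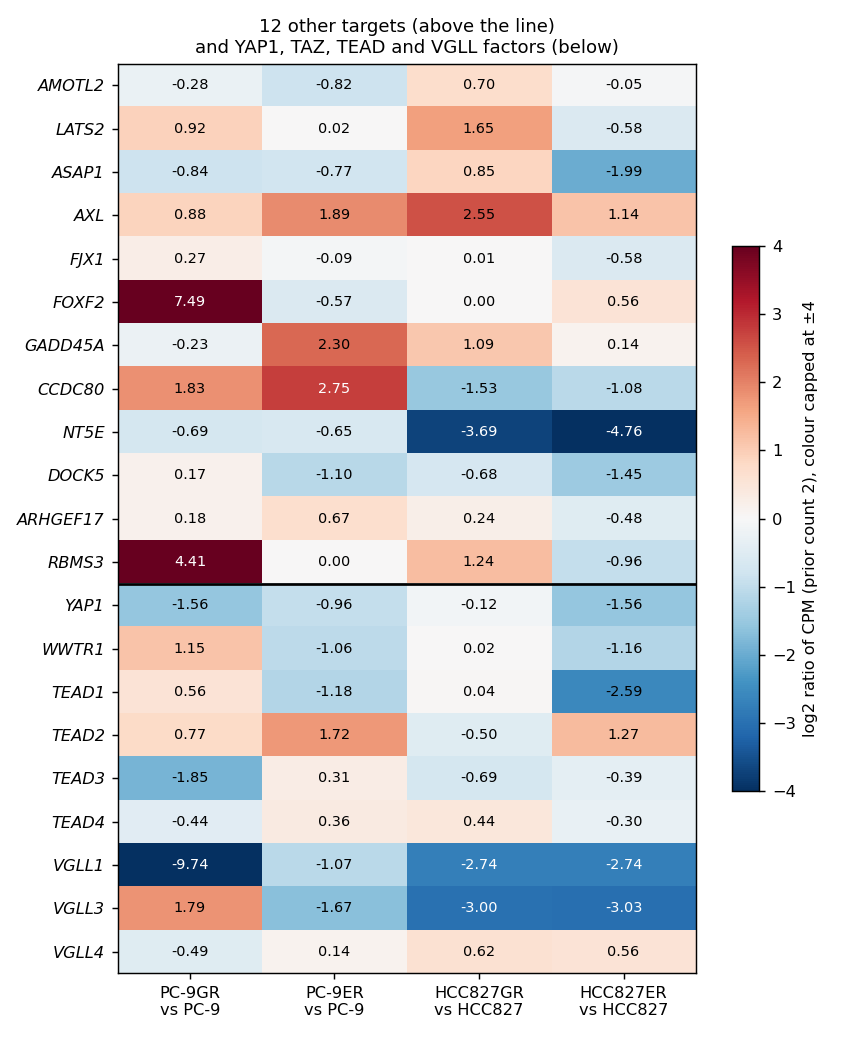
Heat map of the log2 CPM ratio (prior count of 2) of each derived line to its parent, 1 column per pair and 1 gene per row, for the 12 other YAP and TAZ targets above the line and the YAP1, WWTR1, TEAD and VGLL genes below it; colours are capped at 4 either way. AXL lies above 0 and NT5E below 0 in each of the 4 pairs, and WWTR1 runs from -1.16 in HCC827ER (-0.81 with TMM) to 1.15 in PC-9GR.

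Gene groups that share targets or sites with YAP1 and WWTR1 were counted in the same fit. None of their members passed edgeR's test in the resistant against the parental lines. Over all genes 7174 were higher and 6318 lower, with a median log2 fold change of 0.044. Of 30 Hippo kinases and regulators 12 were higher and 18 lower, with a median log2 fold change of -0.15. WTIP, an adaptor that inhibits LATS kinases, had the largest mean change and was at 27.8 CPM in PC-9GR and 1.33 CPM in PC-9ER, against 0.947 CPM in PC-9, with log2 ratios of 0.63 in HCC827GR and 0.85 in HCC827ER (1.20 with TMM). Of 9 AP-1 subunits 3 were higher and 6 lower, with a median of -0.60. FOS and FOSL1, subunits of AP-1 and immediate targets of ERK signalling, were at least 2-fold below the parent in all 4 pairs. Of all genes 0.791% were. FOSL1 was at 18.9 CPM in PC-9GR and 41.1 CPM in PC-9ER, against 95.2 CPM in PC-9, and at 336.5 CPM in HCC827GR and 86.1 CPM in HCC827ER, against 756 CPM in HCC827. F3, whose promoter held 2 AP-1 motifs, was below its parent in 3 of these pairs and above it in PC-9ER. A link between the AP-1 subunits and F3 was not tested. FOS was at 2.86 CPM in PC-9GR and 1.22 CPM in PC-9ER, against 7.16 CPM in PC-9, and at 36.8 CPM in HCC827GR and 0.520 CPM in HCC827ER, against 75.5 CPM in HCC827.

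Of 18 SRF and MRTF targets, actin-regulated genes that overlap with YAP and TAZ targets in many cells, 12 were higher and 6 lower, with a median log2 fold change of 0.29. MYL9, a myosin light chain, was at 7.11 CPM in PC-9GR and 5.04 CPM in PC-9ER, against 1.18 CPM in PC-9, and at 42.1 CPM in HCC827GR and 79.1 CPM in HCC827ER, against 15 CPM in HCC827. Its log2 ratios over the parent were 2.47 (PC-9GR), 1.99 (PC-9ER), 1.48 (HCC827GR) and 2.39 (HCC827ER, 2.74 with TMM). MYL9 thus reached 2-fold higher in each pair, as 0.305% of all genes did. Of 12 TGF-beta targets 7 were higher and 5 lower, with a median of 0.21.

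Relatives and partners of the 10 were counted in the same way. Of 2 other CCN genes tested 1 was higher and 1 lower. CCN5 was at 22.8 CPM in PC-9GR and 0.406 CPM in PC-9ER, against 0 CPM in PC-9, and at 11.0 CPM in HCC827GR and 64.8 CPM in HCC827ER, against 10.5 CPM in HCC827. Of 14 relatives of the other genes 8 were higher and 6 lower, with a median log2 fold change of 0.047. IGFBP7, which like IGFBP3 belongs to the insulin-like growth factor binding proteins, was at 268 CPM in PC-9GR and 0 CPM in PC-9ER, against 0.119 CPM in PC-9. It was at 42.9 CPM in HCC827GR and 196 CPM in HCC827ER, against 0.834 CPM in HCC827. IGFBP7 was thus far above the parent in both HCC827 derivatives, where IGFBP3 was below it. Of 14 partners of the 10, receptors, ligands and inhibitors, 10 were higher and 4 lower, with a median of 0.15. ENG, a TGF-beta co-receptor, had 3 counts in PC-9GR and 838 in PC-9ER, against 725 in PC-9, and its log2 ratios were -0.43 in HCC827GR and -1.14 in HCC827ER (-0.79 with TMM). TFPI, the inhibitor of the tissue factor pathway, was picked after its values were seen: it was at 55.0 CPM in PC-9GR and 0 CPM in PC-9ER, against 0 CPM in PC-9. PC-9GR thus had the most TFPI and the least F3 of its family. In the HCC827 family TFPI was at 81 CPM in HCC827GR and 148 CPM in HCC827ER, against 87.4 CPM in HCC827. HCC827ER had the most TFPI and the least F3 of that family, but HCC827 had more TFPI than PC-9GR and the most F3 of the 6 libraries. A link between TFPI and F3 was not tested.

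Genes whose 4 pair ratios lay nearest to those of CCN1 and CCN2 were found by the smallest largest difference in log2 ratio over the 4 pairs. The 5 nearest to CCN1 were HTD2, NEU3, ESYT3, CEP43 and ZNF266, which stayed within 0.20 to 0.22 of it. NEU3, a membrane sialidase, was at 8.73 CPM in PC-9GR and 18.1 CPM in PC-9ER, against 14.6 CPM in PC-9, far below CCN1 in count. The 5 nearest to CCN2 were SYT13, SLFN13, CYP24A1, PCDHGB5 and STARD4, within 0.96 to 1.41. CYP24A1, the enzyme that breaks down active vitamin D, was at 823 CPM in PC-9GR and 9.63 CPM in PC-9ER, against 6.81 CPM in PC-9, and at 2.40 CPM in HCC827GR and 0.578 CPM in HCC827ER, against 10.3 CPM in HCC827. STARD4, a sterol carrier, was at 28.9 CPM in PC-9GR and at 0 CPM in PC-9ER, against 0 CPM in PC-9.

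Markers of cell state moved along with some of these ratios, and their part in them was not tested. All 6 epithelial markers were lower in the resistant lines in the fit, with a median log2 fold change of -1.26, though none passed edgeR's test. EPCAM was at 1.90 CPM in PC-9GR and 405.5 CPM in PC-9ER, against 383.5 CPM in PC-9, and at 28.98 CPM in HCC827GR and 107 CPM in HCC827ER, against 460 CPM in HCC827. The library with the lowest EPCAM, PC-9GR, was the one with the lowest F3 and with the highest CRIM1, MYOF and NUAK2. The epithelial markers did not all fall there. Log2 ratios of PC-9GR to PC-9 were -7.57 for EPCAM, -7.20 for KRT19, -2.52 for CDH1 and -0.37 for KRT7. For KRT8 and KRT18 they were 0.50 and 0.46. Of the 8 fibroblast markers 5 were listed, at a summed 0.174 to 0.952 CPM per library, with none at 1 CPM, and DCN was at no more than 0.0688 CPM. The 5 endothelial markers summed to 0.112 CPM in PC-9GR and 55.7 CPM in PC-9ER, against 220 CPM in PC-9, with KDR and TEK at 0 in the 3 lines. CDH5 made up most of this, at 0.112 CPM in PC-9GR and 32.8 CPM in PC-9ER, against 151 CPM in PC-9. In the HCC827 family they summed to 0.2 CPM in HCC827GR and 0.173 CPM in HCC827ER, against 0.964 CPM in HCC827. Of the 6 leukocyte markers 5 were listed, at a summed 22.3 to 127 CPM, nearly all of it CD68, at 21.75 to 126.9 CPM. CD14 reached 5.04 CPM in PC-9GR and at most 0.520 CPM elsewhere, and CD3E was at 0 in all lines but HCC827.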

How the data were processed

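Total RNA from 6 cell lines was sequenced after stranded TruSeq Ribo-Zero preparation, per the labels' protocols. The authors aligned reads with HISAT2 2.0.4 to GRCh38.p13 and used Cuffdiff, per the submitters' processing notes. The authors' deposited values are expected counts per gene. The sources used here give neither the counting program nor whether it used strand. Of the genes listed for a library, 13.2 to 14.3% had a value that was not whole, and these values were rounded for the tests. One table, of 16854 genes, covered the GR and parental lines, and another, of 16306 genes, the ER lines. The 16000 genes listed in both were used.

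Tests used edgeR 4.0.16 in R 4.3.3 (TMM, default expression filter, robust quasi-likelihood fits, Benjamini-Hochberg adjustment over 13492 genes at 0.05). There were 5 comparisons: all derived lines against the parents, blocked by family (3 residual degrees of freedom), and, with 2 degrees of freedom, the derivatives of each parent, their difference, and ER against GR lines. No line had a second library, so p-values measure the spread between lines, not between cultures. Within a family, and for the difference between families, it is the spread between derived lines. In the first comparison and in ER against GR it also takes in how far the families disagree. Single pairs had no test: a gene counted as higher or lower at a 2-fold CPM ratio (prior count of 2) with at least 1 CPM in either library. Alternatives were DESeq2 1.42.0, limma 3.58.1 (voom), other scalings, prior counts and filters, no block, counts not rounded, and leaving out each library. The edgeR script was tested on simulated data. edgeR's test gives no SE. Each SE printed is an approximation, the absolute log2 fold change divided by the square root of the test's F statistic.

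The 10 genes and the 13 other lists were chosen with earlier results of these data known. Named in each list were genes that passed the test, genes at least 2-fold changed one way in all 4 pairs, and the gene with the largest mean change over the pairs; YAP1, WWTR1 and TEAD1 to TEAD4, and the 5 genes nearest to CCN1 and to CCN2, were always named. The gene this rule takes from the TGF-beta targets is not reported here. Gene positions are from GENCODE 29 and promoters from RefSeq.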

Additional observations from a re-analysis of the deposited data

Results flagged for a closer look

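ANKRD1 and IGFBP3 are listed because both derivatives of PC-9 moved one way from their parent and both derivatives of HCC827 the other way, a pattern that 12.7% of all genes share. With TMM TGFB2 showed it too. The log2 change in HCC827 derivatives minus that in PC-9 derivatives was 4.68 ± 1.12 for ANKRD1 and -4.43 ± 1.53 for IGFBP3 (SE). The difference was tested as an interaction with edgeR and did not pass for either gene (adjusted p = 1 each). With 1 derived library left out, it ran from 4.18 to 5.47 for ANKRD1 and from -6.04 to -3.69 for IGFBP3. Both derivatives of a parent share its single library, so the direction in a family rests on that 1 parental library.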

How the results depend on the processing

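In the resistant against parental comparison F3 and NUAK2 kept their sign in all 14 alternatives run, and the other 8 target genes did not; with a library left out F3 ran from -4.71 to -0.095 and NUAK2 from 0.24 to 1.78. CCN2 was at -1.03 with limma-voom and -0.40 with no block, against 0.23 as reported. With each library left out in turn, the log2 fold change ran from -0.56 to 0.012 for CCN1, -1.70 to 6.23 for CCN2, -1.25 to 3.44 for ANKRD1, -0.28 to 1.08 for CRIM1, -0.77 to 0.49 for MYOF, -0.17 to 0.62 for TGFB2, -3.21 to 1.22 for IGFBP3 and -0.47 to 0.041 for PTPN14. In the PC-9 family CCN1 was at 0.040 with upper-quartile scaling. The same leave-outs ran from -0.86 to 0.51 for CCN1, -0.58 to 7.22 for CCN2, -6.70 to 0.90 for F3, -0.71 to 1.86 for CRIM1, -0.74 to 1.14 for MYOF and -0.58 to 2.63 for NUAK2. In the HCC827 family PTPN14 was at -0.080 with limma-voom, and the leave-outs ran from -0.79 to 0.025 for CCN1, -0.32 to 0.38 for CRIM1 and -0.69 to 0.53 for PTPN14. The difference between the families ran from -0.86 to 0.53 for CCN1, -4.32 to 3.61 for F3, -1.79 to 0.77 for CRIM1, -1.74 to 1.46 for NUAK2 and -0.39 to 0.85 for PTPN14. ER against GR ran from -0.61 to 1.11 for CCN1, -2.77 to 0.70 for ANKRD1, -1.31 to 6.79 for F3, -0.41 to 0.41 for TGFB2 and -0.020 to 3.71 for IGFBP3. Such a fit has fewer samples, and beyond that the cause was not tested.

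DESeq2 called 29, 94, 42, 25 and 340 genes in the 5 comparisons, where edgeR called 0, and 0, 0, 1, 1 and 2 of the 10 target genes. Leaving out a library gave 0 to 0, 0 to 999, 0 to 159, 0 to 506 and 0 to 1287 genes called by edgeR, and 0 to 0, 0 to 2, 0 to 2, 0 to 1 and 0 to 4 target genes. In HCC827GR 1 target gene in place of 2 was at least 2-fold higher with TMM, with RLE and with totals that left out ribosomal protein genes. The number with 1 direction in every remaining pair was 1 to 2 without a derived library, in place of 0. The comparisons within a family and their difference could not be fitted without the parent concerned. No paired analysis was possible because each line has 1 library, so no replicate numbers pair libraries across lines; line of origin was the block. Counts of 3 or fewer for CCN2 in PC-9 and PC-9ER limit its ratios.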
